A study of Rattus norvegicus with 40 samples.

Results

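The MHC class II genes RT1-Da, RT1-Db1, RT1-Ba, RT1-Bb, Cd74 and Ciita were followed through RNA sequencing of 4 brain regions of rats. They were chosen by name, 6 genes of 25958 gene identifiers over the 4 tables, and all 6 were present in each table. Libraries came from the hippocampus, amygdala, anterior cortex and cerebellum, 5 from blast-exposed and 5 from sham rats in each region, 40 in all, taken 12 months after exposure. The sources used here do not give strain, age or strength of the blast, and no allele, transgene or drug is named for any group. The titles carry numbers, of which 10 recur over the regions with the same treatment. A sham title of the amygdala bears the number 12, which does not recur. Whether a number marks an animal is not labelled, so p-values measure only the spread between these samples, which may be technical.

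MHC class II molecules carry peptides from the endosome to the cell surface and show them to CD4+ T cells. RT1-Da and RT1-Db1 encode the alpha and beta chain of the rat D molecule, the counterpart of human HLA-DR, and RT1-Ba and RT1-Bb encode those of the B molecule, the counterpart of HLA-DQ. Cd74 encodes the invariant chain, which guides new class II molecules to the endosome and fills their groove on the way, and Ciita encodes the transactivator that switches the whole set on. In brain tissue the genes are known from microglia, from macrophages at vessels and meninges, and from few other resting cells.

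The transactivator binds no DNA itself and acts through factors on the X and Y boxes, short elements upstream of class II genes, so the 200 bases before the start are shown for the 5 members found in the RefSeq promoter table (GRCr8), on the gene strand, 5′ to 3′. Capitals mark matches on either strand to the X box core (AG, 2 bases of any kind, AC, 1 base of any kind, GATG), the Y box ATTGG and the CRE core TGACGT, which were searched in the 250 bases before and 50 after each start. The stretches are RT1-Da at chr20:4515215-4515414 (plus strand), RT1-Db1 at chr20:4560163-4560362 (minus), RT1-Ba at chr20:4576857-4577056 (plus), RT1-Bb at chr20:4604119-4604318 (minus) and Cd74 at chr18:56527006-56527205 (plus).
RT1-Da: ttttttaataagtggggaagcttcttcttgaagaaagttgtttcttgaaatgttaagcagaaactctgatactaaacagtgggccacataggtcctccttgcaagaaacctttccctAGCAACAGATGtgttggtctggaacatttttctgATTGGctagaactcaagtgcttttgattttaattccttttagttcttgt
RT1-Db1: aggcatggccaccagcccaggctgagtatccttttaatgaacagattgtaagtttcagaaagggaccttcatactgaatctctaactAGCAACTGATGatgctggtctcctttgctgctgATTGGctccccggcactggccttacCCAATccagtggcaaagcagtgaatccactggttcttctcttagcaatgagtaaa
RT1-Ba: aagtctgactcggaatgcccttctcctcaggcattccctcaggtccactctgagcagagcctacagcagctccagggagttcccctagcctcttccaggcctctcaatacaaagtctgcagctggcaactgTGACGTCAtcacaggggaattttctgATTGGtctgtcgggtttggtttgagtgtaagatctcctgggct
RT1-Bb: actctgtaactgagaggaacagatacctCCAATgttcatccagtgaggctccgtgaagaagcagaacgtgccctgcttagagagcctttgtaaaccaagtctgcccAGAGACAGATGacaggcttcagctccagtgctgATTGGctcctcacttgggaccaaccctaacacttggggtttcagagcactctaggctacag
Cd74: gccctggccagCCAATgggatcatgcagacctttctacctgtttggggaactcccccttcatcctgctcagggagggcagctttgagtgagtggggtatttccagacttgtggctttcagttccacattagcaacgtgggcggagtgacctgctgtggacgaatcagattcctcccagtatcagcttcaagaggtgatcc

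The X box core stood in 3 of the 5 promoters, as AGCAACAGATG in RT1-Da, AGCAACTGATG in RT1-Db1 and AGAGACAGATG in RT1-Bb. In these 3 genes a Y box followed on the same strand after 23, 22 and 22 bases. Of 33469 RefSeq promoters 0.95% held the X box core, 37.5% the Y box and 7.94% the CRE core. An X box core followed by a Y box on the gene strand within 40 bases, a limit chosen after the sequences were seen, occurred in 7 promoters (0.0209%). Those 7 included RT1-Da, RT1-Db1 and RT1-Bb and also RT1-DOb and RT1-Db2, both class II genes, and the other two were RT1-CE10 and Ehd4. RT1-Ba held a Y box and, before it, a match to TGACGT on each strand, overlapping in 1 run that reads the same on both, and no match to the X box core. Cd74 held a single Y box, on the opposite strand at 189 bases before the start. A match is a run of letters, and no binding was measured.

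The tables name no genome build. In their coordinates the 4 chain genes lie on chromosome 20, namely RT1-Bb (ENSRNOG00000032708) at 4039413 to 4049711, RT1-Ba (ENSRNOG00000000451) at 4066132 to 4070721, RT1-Db1 (ENSRNOG00000033215) at 4087618 to 4097190 and RT1-Da (ENSRNOG00000032844) at 4127644 to 4132616. Cd74 (ENSRNOG00000018735) lies on chromosome 18 at 56071478 to 56080849 and Ciita (ENSRNOG00000002659) on chromosome 10 at 5213350 to 5260608. None overlaps another gene of the tables. RT1-Db1 has a near-identical copy, RT1-Db2, which appeared in the anterior cortex table only, with 2 counts in all, and how reads shared by such copies were counted is not stated, so the values of RT1-Db1 are uncertain to that extent.

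Library totals ran from 11268097 to 37128383 counts. Some libraries stood apart from their group. In the hippocampus, blast libraries Hip_8 and Hip_666 and sham library Hip_11 had summed choroid plexus genes of 5299 to 8840 CPM (counts scaled to library size after TMM), while the highest of the other 7 libraries was at 252. In the cerebellum, Cer8 and Cer22 of blast and Cer33 of sham had 1226 to 2733 CPM of these genes, and the highest of the other 7 was at 133. In the anterior cortex, the number of genes with a count ran from 16577 to 20748, and 4 libraries, AC_8 of blast and AC_11, AC_13 and AC-15 of sham, had the fewest. In the amygdala, 1 sham column bears the number 13 where the matching title has 12, and it is called the unnumbered library. Microglia genes, the check that the tissue is brain, were present in every library, with Csf1r among the most abundant, and Siglech was at 0 in 36 of 40.

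Class II transcripts were low in all 4 regions and led by the invariant chain. On the scale of deposited FPKM (counts scaled to length and library size, as the authors computed them), Cd74 was the highest member in every region, with sham means of 10.5 ± 4.3 (SD, n = 5) in the hippocampus, 20.2 ± 5.6 in the amygdala (n = 4, since the FPKM column of the unnumbered library was left out), 10.9 ± 2.9 in the anterior cortex and 8.60 ± 1.98 in the cerebellum. These sham means exceeded the level of 61.9% to 81.0% of the genes in a table. RT1-Da came second, at sham means of 1.58 to 5.83 FPKM, so that Cd74 stood 3.46 to 5.43 times above it. RT1-Db1, RT1-Ba and RT1-Bb had sham means between 0.386 and 2.09 FPKM. Ciita was the lowest in every region, at 0.0575 to 0.108 FPKM, from 21 to 43 counts summed over 5 libraries. The order below Cd74 depends on the length used, since the FPKM imply lengths of 836 to 5125 bases while the tables list 1361 to 5515. Per kilobase of the listed length RT1-Ba passed RT1-Db1 in the hippocampus and the anterior cortex, and passed RT1-Da in the cerebellum.

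**Figure D1:**
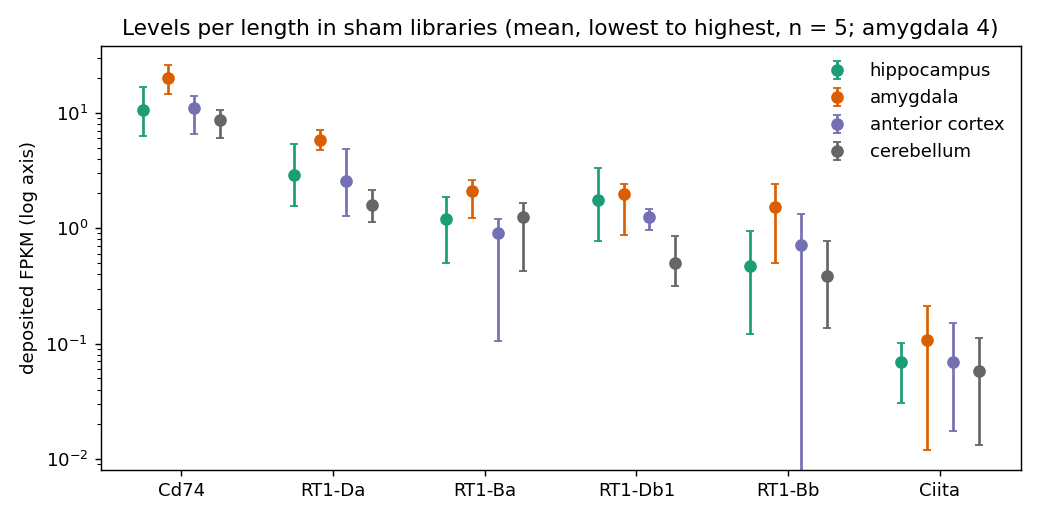
Deposited FPKM of the 6 class II genes in sham libraries, on a log axis, with the mean as a point and a bar from the lowest to the highest of 5 libraries (4 in the amygdala) for each region. The bar of RT1-Bb in the anterior cortex runs off the axis because 1 library is at 0. Cd74 is highest and Ciita lowest in each region, and the amygdala mean of Cd74, 20.2, is the highest.

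Among the sham libraries Cd74, RT1-Da and RT1-Db1 were highest in the amygdala and lowest in the cerebellum. The region means of Cd74 were 20.5 ± 5.6 CPM in the amygdala (SD, n = 5), 11.4 ± 3.1 in the anterior cortex, 10.6 ± 4.1 in the hippocampus and 8.82 ± 2.02 in the cerebellum. Cd74 was higher in the amygdala than in the cerebellum by 1.34 ± 0.26 on the log2 scale (SE; adjusted p = 3.8e-05), than in the hippocampus by 0.94 ± 0.26 (adjusted p = 0.0064) and than in the anterior cortex by 0.75 ± 0.26 (adjusted p = 0.0288), by edgeR with Benjamini-Hochberg (BH) adjustment over all genes. Between the remaining 3 regions no difference of Cd74 passed, with the anterior cortex over the cerebellum at 0.60 ± 0.27 (adjusted p = 0.0511).

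The chain genes differed between sham regions as well. RT1-Da was higher in the amygdala than in the cerebellum by 1.94 ± 0.36, and the hippocampus and anterior cortex lay between, 0.99 and 0.96 above the cerebellum and within 0.03 of each other. RT1-Db1 passed in no pair of the hippocampus, amygdala and anterior cortex, and all 3 lay above the cerebellum, by 1.91 ± 0.39, 2.05 ± 0.39 and 1.55 ± 0.40. RT1-Bb was higher in the amygdala than in the hippocampus (by 1.76 ± 0.62) and than in the cerebellum (by 2.15 ± 0.64). RT1-Ba and Ciita passed the test in no pair of regions. An F test over the 4 sham means called the same 4 genes, Cd74, RT1-Da, RT1-Db1 and RT1-Bb, beside 78.3% of all genes. In all, 13 of 36 comparisons of a member between 2 sham regions were called at an adjusted p under 0.05. Region differences are common in these tables: between 25% (hippocampus and amygdala) and 62.3% (anterior cortex and cerebellum) of all genes were called in a pair, with 48.3%, 56.4%, 29.6% and 61.2% in the other 4 pairs.

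With 1 of the 20 sham libraries left out in turn, an alternative added after the data were seen, 7 of the 13 calls were kept in every fit. They were Cd74 of the amygdala over the hippocampus and over the cerebellum, RT1-Db1 of the other 3 regions over the cerebellum, and RT1-Da and RT1-Bb of the amygdala over the cerebellum. The other 6 were lost in 2 to 8 of 10 fits each, with a largest adjusted p by edgeR of 0.0900 to 0.161. Cd74 of the amygdala over the anterior cortex was lost without Amy_14, Amy_33, AC_13 or AC-15, and RT1-Da of that pair without Amy_33, AC_13, AC_14 or AC-15. RT1-Da of the amygdala over the hippocampus was lost without Hip_13, Hip_14, Hip_33, Amy_14, Amy-15 or Amy_33. RT1-Bb of that pair was lost without any of the 8 libraries other than Hip_11 and Amy-15. RT1-Da over the cerebellum was lost for the hippocampus without Hip_11 or Cer11, and for the anterior cortex without AC_11, Cer11 or Cer15. In 3 pairs a call was gained, namely Cd74 of the anterior cortex over the cerebellum without AC-15, Cer11 or Cer33, RT1-Bb of that pair without AC-15, and Ciita of the amygdala over the cerebellum without Amy_33.

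In a fit of limma-voom to the sham libraries with the title number as a replicate block, 10 comparisons were called, and 10 without the block. Ciita failed the filter on low counts there, so its pairs were not tested in these fits. The 3 calls of edgeR that both fits lost were RT1-Bb between the hippocampus and amygdala (adjusted p = 0.0585 with the block) and RT1-Da of the cerebellum against the hippocampus (adjusted p = 0.0629) and against the anterior cortex (adjusted p = 0.0699). In whole tissue, fewer cells of a type and less RNA per cell cannot be told apart, here and in the comparisons that follow. Summed microglia genes were at sham means of 557 CPM in the amygdala, 567 in the anterior cortex, 419 in the hippocampus and 228 in the cerebellum. Summed meningeal fibroblast genes were at a sham mean of 465 CPM in the amygdala against 122 to 200 in the other 3 regions. The hippocampus mean of 193 was raised by Hip_11, at 626 CPM, and the median there was 80.2. The part of these genes in the regional levels was not tested.

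In the cerebellum, transcripts of the invariant chain and of both D chains were higher in blast than in sham libraries, and none passed the test over all genes. Cd74 stood at 10.98, 13.9, 13.3, 15.3 and 14.2 CPM in blast libraries Cer4, Cer8, Cer22, Cer88 and Cer666 and at 10.93, 8.07, 8.05, 6.23 and 10.8 CPM in sham libraries Cer11, Cer13, Cer14, Cer15 and Cer33. Every blast library lay above every sham library, with Cer4 and Cer11 almost level. The fold change was 0.62 ± 0.15 on the log2 scale (SE; edgeR unadjusted p = 0.0014, adjusted p = 0.932 over all genes).

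RT1-Da, the D alpha chain, stood at 2.96, 3.52, 2.44, 2.82 and 3.30 CPM in the same order of blast libraries and at 1.10, 1.74, 1.46, 1.28 and 2.05 CPM in sham. The 2 groups did not overlap, and their means were 3.01 ± 0.42 CPM in blast and 1.52 ± 0.38 in sham (SD, n = 5). Its log2 fold change was 0.99 ± 0.21, the fourth smallest p among 14769 genes (unadjusted p = 0.0003), with an adjusted p of 0.764 by edgeR.

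RT1-Db1, the D beta chain, stood at 1.05, 1.02, 1.30, 1.18 and 0.724 CPM in blast and at 0.412, 0.400, 0.293, 0.425 and 0.768 CPM in sham, from 4 to 18 counts a library. The groups overlapped through Cer666 of blast and Cer33 of sham alone, and 4 blast libraries lay above all sham libraries. The fold change was 1.21 ± 0.31 (unadjusted p = 0.0017, adjusted p = 0.932 by edgeR).

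The B chains and the transactivator overlapped between the groups in the cerebellum, as RT1-Db1 did, and RT1-Bb was the nearest to it. RT1-Ba ran from 0.329 to 2.50 CPM in blast and from 0.354 to 1.37 in sham, with a fold change of 0.21 ± 0.46. RT1-Bb failed the filter on low counts, at 2 to 15 counts a library. In a fit with no filter it was at 1.01 ± 0.47 (edgeR unadjusted p = 0.046, adjusted p = 0.854). Of its 5 blast libraries 3 lay above all sham libraries, and all 5 lay above the sham median. Ciita, at 1 to 9 counts a library, also failed the filter and was at 0.30 ± 0.61.

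All 4 members tested in the cerebellum were higher in blast on average, beside 51.1% of all genes. Of the 4, 0 were called at an adjusted p under 0.05, as were 0% of all genes, and DESeq2 and limma-voom called none of the members either. At an unadjusted p under 0.05, 3 of the 4 were higher in blast, beside 2.81% of all genes. For 2 of the 4, every blast library lay above every sham library, beside 0.42% of all genes. The smallest adjusted p of any alternative for Cd74 and for RT1-Da was 0.123, from DESeq2, and the range over the alternatives reached 1.00 for both. In the authors' deposited table, Cd74 and RT1-Da had an adjusted p of 0.206 each and RT1-Db1 one of 0.985.

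**Figure D2:**
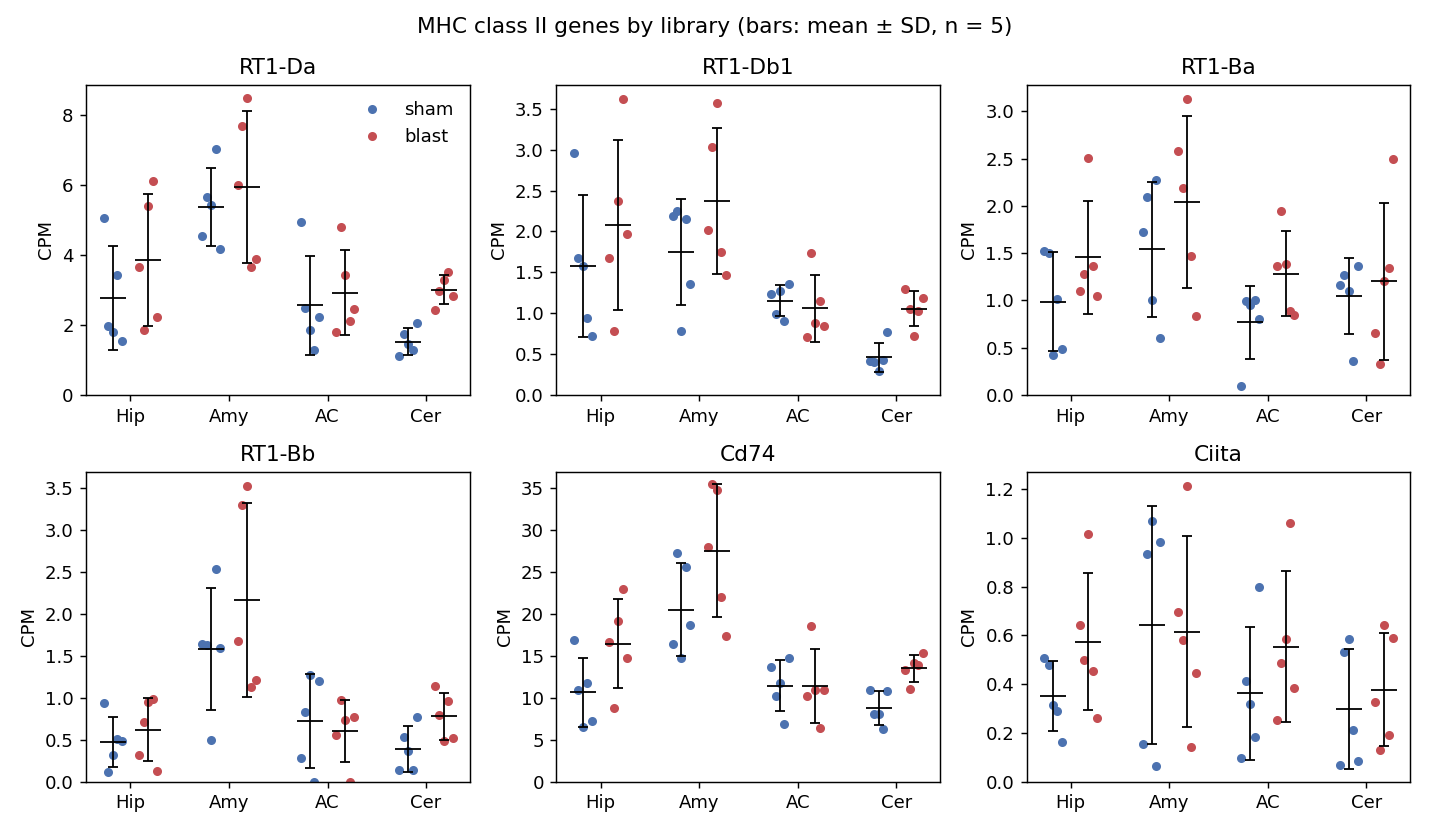
CPM of each class II gene in every library, by region (Hip, hippocampus; Amy, amygdala; AC, anterior cortex; Cer, cerebellum), with sham in blue and blast in red and bars of the mean ± SD of 5 libraries on a linear axis. The 5 blast libraries of the cerebellum lie above the 5 sham libraries for Cd74 and RT1-Da, and the groups overlap in the other regions.

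Genes of meningeal fibroblasts, cells of the covering of the brain, were also higher in blast than in sham libraries of the cerebellum on average. All 12 genes of the list were higher in blast, beside 51.1% of all genes. At an unadjusted p under 0.05, 6 of them were higher, beside 2.81% of all genes, and 0 were called. Their median log2 fold change was 0.82 beside 0.0022 for all genes tested. Their summed level was 165, 312, 386, 168 and 140 CPM in blast libraries Cer4, Cer8, Cer22, Cer88 and Cer666 and 50.4, 128, 164, 57.0 and 211 CPM in sham libraries Cer11, Cer13, Cer14, Cer15 and Cer33. The groups overlapped, and the 2 lowest libraries were both sham. Among the blast libraries the order was not that of Cd74, whose 2 highest were Cer88 and Cer666, at 15.3 and 14.2 CPM. Igf2, the most abundant of the list, was at 128 against 58.9 CPM (log2 fold change 1.13 ± 0.49), and Col1a1 at 18.1 against 10.3 (0.81 ± 0.39).

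The meningeal difference was measured beside the class II one, and its part in it was not tested. Without sham libraries Cer11 and Cer15, an alternative added after the data were seen, RT1-Da was at 0.78, RT1-Db1 at 1.13 and Cd74 at 0.59, each with an adjusted p of 0.924 by edgeR, and RT1-Ba turned to -0.03. Choroid plexus genes, led by Ttr and Clic6, were also higher in blast for 10 of 10 tested, with summed levels of 2102 and 2733 CPM in Cer8 and Cer22 of blast, 1226 in Cer33 of sham, 52.9 to 133 in the other 3 blast libraries and 48.0 to 102 in the other 4 sham libraries. Without Cer8, Cer22 and Cer33, also added after the data were seen, RT1-Da was at 1.11, RT1-Db1 at 1.35, Cd74 at 0.69 and RT1-Ba at 0.46, each with an adjusted p of 1.00 by edgeR.

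Summed markers of microglia and of border macrophages, the cells that carry class II in resting brain, overlapped between the groups. Summed microglia genes in the cerebellum ran from 220 to 242 CPM in blast and from 217 to 241 in sham, with 7 of 11 tested genes higher and a median of 0.05. Border macrophage genes, led by Maf and Stab1, ran from 67.1 to 75.9 CPM in blast and from 52.8 to 89.8 in sham. Of 7 tested 5 were higher, with a median of 0.24. In that list 2 of the 7 were higher at an unadjusted p under 0.05, beside 2.81% of all genes, and 0 were called. These 2, chosen after their values were seen, were Mrc1, the mannose receptor, at 0.68 ± 0.26 and F13a1, a coagulation factor chain, at 0.95 ± 0.30.

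Lymphocyte and dendritic cell lists overlapped between the groups in the cerebellum. Summed B cell genes in the cerebellum were at 0.704 to 1.31 CPM in blast and 0.534 to 1.02 in sham, led by Jchain and Fcrla, and Ms4a1 was at 0 in 8 of 10 libraries. Summed T cell genes were at 3.52 to 4.99 CPM in blast and 3.30 to 5.60 in sham, and Cd3d was at 0 in 6 of 10. The dendritic cell list, at 118 to 130 CPM in blast and 112 to 127 in sham, was almost wholly Flt3 and Zbtb46, while Ccr7 was at 0 in 8 of 10 and Cd209 in 9 of 10. Endothelial genes, led by Slco1a4 and Flt1, ran from 159 to 177 CPM in blast and from 148 to 186 in sham, and blood genes, led by Hba-a2 and Hbb, from 170 to 426 and from 211 to 360.

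In the hippocampus the 4 members tested were all higher in blast on average, beside 49.0% of all genes, and the groups overlapped. By edgeR 0 were called, as were 0% of all genes, and 0 were higher at an unadjusted p under 0.05, beside 0.97% of all genes. Cd74 stood at 8.77, 22.96, 16.6, 14.8 and 19.1 CPM in blast libraries Hip_4, Hip_8, Hip_22, Hip_88 and Hip_666 and at 16.8, 10.96, 6.47, 11.7 and 7.18 CPM in sham libraries Hip_11, Hip_13, Hip_14, Hip_15 and Hip_33. The 2 highest blast libraries were Hip_8 and Hip_666, and the highest sham library was Hip_11, the 3 libraries high in choroid plexus genes. The fold change of Cd74 was 0.63 ± 0.29 (unadjusted p = 0.0508, adjusted p = 0.998), and without those 3 libraries it was 0.57. The authors' deposited table gave Cd74 of the hippocampus, alone of the members, an unadjusted p under 0.05 (0.0265), with an adjusted p of 0.9998.

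The chains of the hippocampus had the same 3 libraries at or near their top. RT1-Da was at 6.12 and 5.42 CPM in Hip_8 and Hip_666 of blast and at 5.07 in Hip_11 of sham, and its other libraries ran from 1.53 to 3.67. RT1-Db1 was at 3.63 and 2.37 in Hip_8 and Hip_666 and at 2.96 in Hip_11, with the others from 0.726 to 1.97. RT1-Da had a fold change of 0.49 ± 0.41, which became 0.26 without the 3 libraries, and RT1-Db1 one of 0.40 ± 0.43, which became 0.25. RT1-Ba was at 0.57 ± 0.41, and at 0.41 without them.

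RT1-Bb and Ciita failed the filter in the hippocampus, with 2 to 15 counts a library, and were at 0.41 ± 0.60 and 0.69 ± 0.49 with no filter. Summed meningeal fibroblast genes were 629, 899 and 626 CPM in Hip_666, Hip_8 and Hip_11, followed by 302 in Hip_22 of blast and by 53.2 to 136 in the other 6 libraries. All 12 of these genes were higher in blast, with a median of 0.42 and 0 at an unadjusted p under 0.05. Their part in the class II values was not tested.

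In the amygdala, where sham levels were highest, 5 members were tested, all higher in blast on average, beside 49.7% of all genes, and 0 were called by edgeR, as were 0% of all genes. Cd74 was at 35.4, 21.95, 27.9, 17.3 and 34.7 CPM in blast libraries Amy_4, Amy_8, Amy_22, Amy_88 and Amy_666 and at 16.3, 27.2, 14.8 and 25.5 CPM in sham libraries Amy_11, Amy_14, Amy-15 and Amy_33 and 18.6 in the unnumbered one. Amy_4, Amy_22 and Amy_666 lay above all sham libraries, and Amy_8 and Amy_88 lay within the sham range. The fold change was 0.42 ± 0.21 (unadjusted p = 0.0599, adjusted p = 0.585). By edgeR no tested member had an unadjusted p under 0.05, beside 8.67% of all genes, 4.22% being higher in blast. The authors' deposited table gave Cd74 of the amygdala, alone of the members, an unadjusted p under 0.05 (0.0355), with no adjusted p.

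Blast libraries Amy_4 and Amy_666 also held the highest values of RT1-Da, RT1-Db1 and RT1-Bb in the amygdala. RT1-Da reached 7.68 and 8.49 CPM in them, against 3.65 to 5.99 in the other 3 blast libraries and 4.16 to 7.03 in sham. RT1-Bb reached 3.29 and 3.51 CPM, against 1.12 to 1.67 in the rest of blast and 0.50 to 2.53 in sham. Fold changes were 0.15 ± 0.24 for RT1-Da, 0.44 ± 0.33 for RT1-Db1, 0.40 ± 0.39 for RT1-Ba and 0.45 ± 0.41 for RT1-Bb. Ciita failed the filter and was at -0.04 ± 0.62 with no filter.

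The anterior cortex showed no common direction. Cd74 was at 18.5, 6.37, 10.2, 10.9 and 10.9 CPM in blast libraries AC_4, AC_8, AC_22, AC_88 and AC_666 and at 13.6, 10.2, 11.7, 6.91 and 14.7 CPM in sham libraries AC_11, AC_13, AC_14, AC-15 and AC_33. The highest value was a blast library and the lowest was another, and the fold change was -0.01 ± 0.27. RT1-Da was at 0.19 ± 0.41, RT1-Db1 at -0.14 ± 0.38, RT1-Ba at 0.73 ± 0.50 and RT1-Bb at -0.26 ± 0.79, so that 2 of 5 were higher in blast, beside 50% of all genes. Of these 5 tested members 0 were called, as were 0% of all genes, and 0 had an unadjusted p under 0.05, beside 4.32% of all genes, 1.88% being higher in blast. The 4 libraries with the fewest genes detected were AC_8 of blast and AC_11, AC_13 and AC-15 of sham. Without them, AC_14 and AC_33 were the only sham libraries, and RT1-Da was at 0.59, RT1-Bb at -0.74 and RT1-Db1 at -0.37. Each had an adjusted p of 0.999 by edgeR. Ciita failed the filter and was at 0.56 ± 0.74 with no filter.

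**Figure D3:**
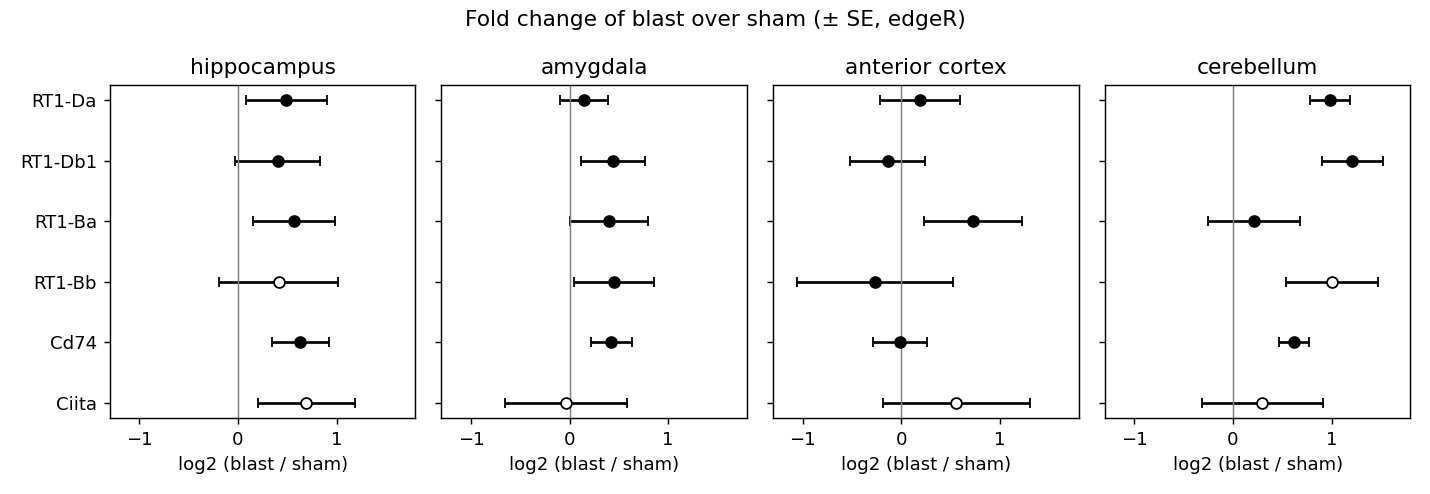
Log2 fold change of blast over sham with its standard error (edgeR, 5 against 5 libraries) for each class II gene and region. Filled points passed the filter on low counts and open points come from a fit with no filter. RT1-Da, RT1-Db1 and Cd74 of the cerebellum, at 0.99, 1.21 and 0.62, lie farthest from 0 relative to their errors.

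Averaged over the 4 regions, each member was higher in blast, and none was called. The mean effect was 0.41 ± 0.14 for Cd74 (log2, SE; unadjusted p = 0.0049, adjusted p = 0.389), 0.43 ± 0.18 for RT1-Da (adjusted p = 0.547), 0.43 ± 0.20 for RT1-Db1 (adjusted p = 0.580), 0.51 ± 0.26 for RT1-Ba, 0.47 ± 0.37 for RT1-Bb and 0.42 ± 0.33 for Ciita, by limma-voom with the title number as a block. Of the 6 members 0 were called, beside 0.00611% of all genes. At an unadjusted p under 0.05, 3 of the 6 were higher, beside 4.1% of all genes, and all 6 were higher in direction, beside 52.8%. Without the 3 hippocampus and 4 anterior cortex libraries that stood apart, Cd74 was at 0.37, RT1-Bb at 0.20 and Ciita at 0.18, and with the 3 cerebellum libraries left out too, Cd74 was at 0.38, RT1-Bb at 0.18 and Ciita at 0.18.

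Whether the blast effect differed between regions was tested by the interaction of region and treatment in edgeR. No member passed, with unadjusted p from 0.126 for RT1-Db1 to 0.884 for RT1-Ba and an adjusted p of 1.00 for each, and 0% of all genes were called. The fold changes of RT1-Da, RT1-Db1 and RT1-Bb were largest in the cerebellum, and are thus not shown to differ from those of the other regions. Those of Cd74, RT1-Ba and Ciita were not largest there, with Cd74 at 0.62 in the cerebellum and 0.63 in the hippocampus.

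The members varied together over the libraries to unequal degrees. Over the 40 libraries, with log2 CPM centred within each region, Pearson's r was 0.78 between RT1-Da and Cd74, 0.75 between RT1-Db1 and Cd74 and 0.67 between the 2 D chains. RT1-Bb followed Cd74 at 0.60 and RT1-Ba at 0.47, and the 2 B chains followed each other at 0.29. Ciita stood at 0.08 to 0.31 with the other members, and its values rest on 1 to 19 counts a library. These values are descriptions, since libraries of 1 title number may share an animal, and low counts lower r.

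A class II score was taken for each library as the mean over the 6 members of their centred log2 CPM, each scaled to unit spread. By title number, the mean score ran from -0.85 for the sham libraries Hip_15, Amy-15, AC-15 and Cer15, below the region's mean in 4 of 4 regions, to 0.88 for the blast libraries Hip_666, Amy_666, AC_666 and Cer666, above it in 4 of 4. The sham numbers 11, 14, 33 and 13 lay at -0.20 to -0.14, and the blast numbers 88, 8, 22 and 4 at -0.01 to 0.39. The nearest of the 2 groups were blast 88, at -0.01, and sham 13, at -0.14 from 3 regions, and blast 8, 88, 22 and 4 each had regions on both sides of 0. Taken gene by gene, 1 of the 6 members, Cd74, had every blast number above every sham number, beside 0.629% of all genes.

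**Figure D4:**
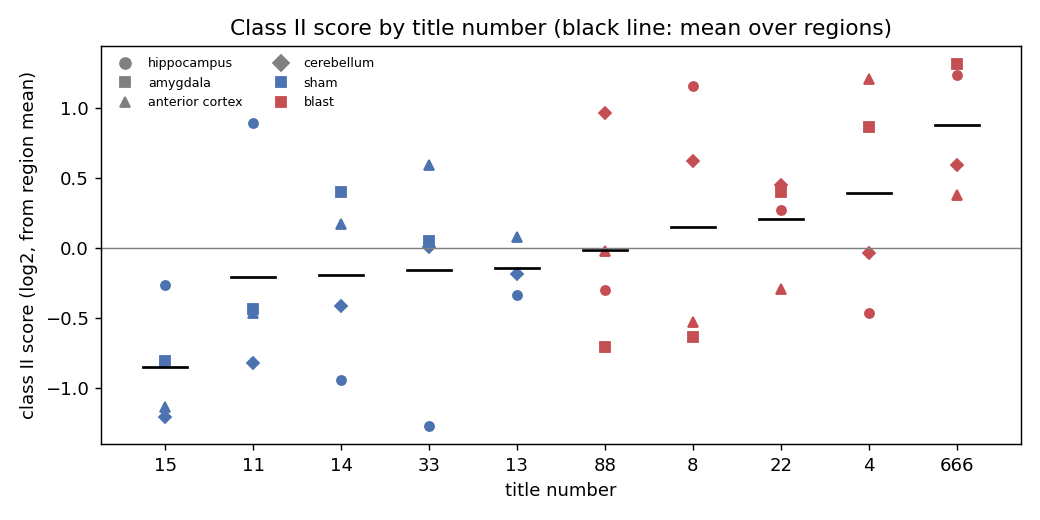
Class II score of each library by title number, in order of the mean (black line), with a symbol for each region, sham in blue and blast in red; number 13 has 3 regions, and the unnumbered amygdala library is not drawn. The number at the left end, of mean -0.85, lies below 0 in all 4 regions and that at the right end, of mean 0.88, above 0 in all 4, and most of the others spread across 0.

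Of 16372 other genes, the 10 whose pattern over the 40 libraries was most like the class II score were Anxa2 (r = 0.79), Mpzl2 (0.74), Igfbp2 (0.73), Ptgds (0.73), Mmp14 (0.73), Trim5 (0.72), Serping1 (0.72), Ajuba (0.72), Slc12a7 (0.71) and Aldh2 (0.71). The median gene had r = 0.02 and the 99th percentile was 0.58. Ptgds makes prostaglandin D2 and is abundant in the leptomeninges and choroid plexus, Igfbp2 binds insulin-like growth factors, Serping1 is the inhibitor of complement C1, Anxa2 binds membrane phospholipids and Mmp14 is a membrane-bound metalloproteinase. Anxa2 had r = 0.92 in the hippocampus, 0.75 in the amygdala, 0.74 in the anterior cortex and 0.83 in the cerebellum, with 10 libraries each. Serping1 reached 0.89 in the amygdala, and Mmp14 was at 0.30 in the anterior cortex. With centring within region and treatment 3 of the 10 genes stayed among the 10 most alike, and with the cerebellum left out 4 did.

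Of the 9 cell type lists, the summed meningeal fibroblast genes followed the class II score most closely, with r = 0.72 over the 40 libraries. By region, over blast and sham libraries together, r was 0.92 in the hippocampus, 0.76 in the amygdala, 0.31 in the anterior cortex and 0.76 in the cerebellum. Other lists came close to it within a region, with choroid plexus and dendritic cell genes at 0.86 and 0.85 in the hippocampus. T cell genes were at 0.66 in the amygdala, and microglia genes were next in the cerebellum, at 0.50. Signs changed between regions for these lists. Dendritic cell genes were at -0.26 in the amygdala and -0.48 in the anterior cortex, and T cell genes at -0.50 in the hippocampus. B cell genes were at -0.37 and choroid plexus genes at -0.12 in the amygdala, and microglia genes at -0.10 in the hippocampus. In the anterior cortex microglia genes were at 0.71, choroid plexus genes at 0.69, T cell genes at 0.61 and B cell genes at 0.47, all above the meningeal list. Over the 40 libraries choroid plexus genes followed at 0.50, microglia at 0.32, border macrophages at 0.29, endothelium and T cells at 0.13, dendritic cells at 0.11, B cells at 0.09 and blood at 0.07. These are descriptions over libraries that differ in composition and depth, and no p is given.

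**Figure D5:**
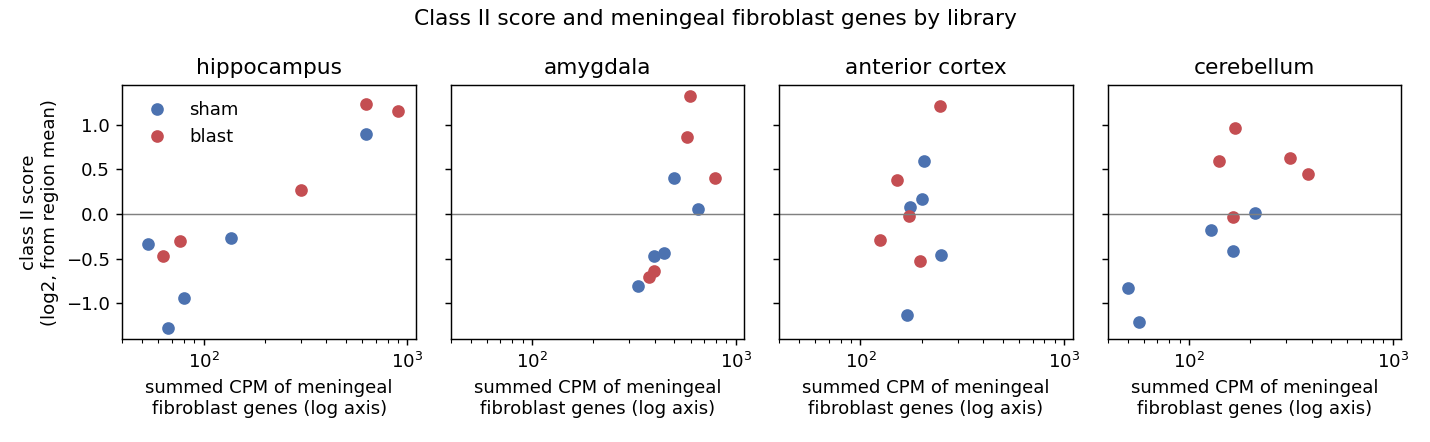
Class II score of each library against the summed CPM of 12 meningeal fibroblast genes on a log axis, by region, with sham in blue and blast in red. The points climb together in the hippocampus (r = 0.92), amygdala (0.76) and cerebellum (0.76) and least in the anterior cortex (0.31). Each r spans blast and sham libraries, so it includes any difference between the groups. Among the blast libraries of the cerebellum, Cer88 had the highest score, 0.97, at 168 CPM, and Cer22 had 0.45 at 386 CPM.

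No gene of the rest of the presentation pathway was called. Of 35 listed genes in the tables, 28 were tested in the hippocampus, 28 in the amygdala, 29 in the anterior cortex and 27 in the cerebellum, and 0 were called in any region. In the cerebellum 18 were higher and 9 lower, with a median log2 fold change of 0.01 and 0 at an unadjusted p under 0.05, beside 4.62% of all genes. In the hippocampus 19 were higher and 9 lower, with a median of 0.06 and again 0 at that p, beside 1.89%. In the amygdala 3 genes had an unadjusted p under 0.05, beside 8.67%, and were chosen for that, namely Ifngr2, a chain of the interferon gamma receptor, at 0.23 ± 0.08, Cd86, a costimulator of T cells, at 0.85 ± 0.30 and March8, a ubiquitin ligase that removes class II from the surface, at -0.16 ± 0.07.

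The peptide exchange factors DM and their modulators DO were measured at low counts. RT1-DMa, the alpha chain of DM, was at 1.68 ± 1.87 CPM in blast and 0.765 ± 0.202 in sham hippocampus (SD, n = 5), a fold change of 1.14 ± 0.62 (unadjusted p = 0.0898, adjusted p = 0.998 by edgeR). RT1-DMb, its beta chain, was tested in all 4 regions, at 0.59 ± 0.82 in the hippocampus, -0.95 ± 0.96 in the amygdala, -0.03 ± 0.98 in the anterior cortex and 0.21 ± 0.95 in the cerebellum. RT1-DOa and RT1-DOb were tested in none, with 3 to 21 and 13 to 74 counts over the 10 libraries of a region.

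The endosomal proteases that cut the invariant chain and antigens had small fold changes in the cerebellum. Ctsl, cathepsin L, was at 61.3 against 56.6 CPM (0.12 ± 0.07) and Ctsd, cathepsin D, at 228 against 216 (0.08 ± 0.05). Ifi30, a thiol reductase of the endosome, was at 8.77 against 7.23 CPM (0.28 ± 0.14, unadjusted p = 0.0671, adjusted p = 0.999 by edgeR). Ctsd and Ctsl were nonetheless the pathway genes closest to the class II score, with r = 0.60 and 0.59 over the 40 libraries.

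The factors that act on the class II promoters and the costimulators gave no called change. Rfxank, a subunit of the factor that binds the X box, was at 0.14 ± 0.09 in the cerebellum, and Nfyb, a subunit of the Y box factor, at -0.11 ± 0.07 in the hippocampus. Cd80, a costimulator of T cells, was at 2.39 against 1.73 CPM in the cerebellum (0.46 ± 0.25) and at 0.60 ± 0.34 in the hippocampus. Irf1, a transcription factor induced by interferon gamma, had r = 0.45 with the class II score, and Jak2, a kinase of the same route, had r = -0.52.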

How the data were processed

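The class II genes and all gene lists were chosen with earlier results of these data known. Per the file headers, each region has 1 table of the authors' raw counts, FPKM, log2 fold changes and p-values with adjusted p-values. The unnumbered amygdala library entered by its counts as a sham library known by group alone, and its FPKM column, 1 in all, was left out. The submitters' processing notes name CASAVA. No source used here gives the aligner, counter, annotation or build. The labels' protocols name Qiazol extraction and NEBNext Ultra libraries.

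Counts of 5 blast and 5 sham libraries per region were fitted with edgeR 4.0.16 (filterByExpr, TMM, two-sided quasi-likelihood F test), with Benjamini-Hochberg adjustment over all genes tested and a threshold of 0.05. Genes in all 4 tables (20814 identifiers, 16378 tested) entered an edgeR model of 8 groups for the interaction and for sham regions, and limma 3.58.1 (voom, title number as a random block, correlation 0.0209) for the mean over regions. CPM uses TMM library sizes, and log2 CPM for r a prior count of 2. Library totals of 11268097 to 37128383 bound counting error, and no 2 libraries of a group were duplicates (smallest chi-square per degree of freedom 6.64 over 80 pairs). Members that failed the filter were given from a fit with no filter. Alternatives were RLE scaling, library totals only, no filter, DESeq2 1.42.0, limma-voom, 1 model of 40 libraries, each library left out and the sets of libraries named in the text, which were added after the data were seen. Of the fits, only the edgeR fit within a region was run on simulated counts, with a fixed spread and changes in well-counted genes alone. The simulation did not cover low-count members, the mean over regions or the sham regions. Same-numbered libraries had a mean correlation of deviations of 0.06 (-0.15 to 0.44 over 57 pairs) against -0.02 for others. It was over 0.1 in 19 of these 57 pairs and in 24 of 228 others. Pairing by number was thus neither shown nor excluded. By design the number still entered the mean over regions as a random block.

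Named were the members, the 8 pathway genes with the smallest p in the cerebellum, hippocampus or mean effect with DM and DO genes, the 10 genes most like the score, and the 2 most abundant genes of each marker list, of which one is not reported here. Of 37 pathway names 35 and of 85 marker names 79 were found.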

Additional observations from a re-analysis of the deposited data

Results flagged for a closer look

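In 4 of 48 groups of 5 libraries, 1 library stood outside the others by more than Dixon's 95% critical value, and chance flags about 1 group in 20. RT1-Ba accounted for 3 of them. In the hippocampus, blast library Hip_666 had 2.50 CPM of RT1-Ba (37 counts), and the next highest had 1.36. In the anterior cortex, sham library AC_11 had 0.0953 CPM of RT1-Ba (1 count), and the next lowest had 0.800. In the cerebellum, sham library Cer15 had 0.354 CPM of RT1-Ba (5 counts), and the next lowest had 1.10. RT1-Db1 in the cerebellum was at 0.768 CPM in sham library Cer33 (9 counts), and the next highest sham library had 0.425, so this library closed the gap to the blast group. With each of these libraries left out in turn, 0 members were called in blast against sham. Among sham regions, leaving out AC_11 or Cer15 lost the call of RT1-Da of the anterior cortex over the cerebellum, and leaving out Cer33 gave one for Cd74 of that pair.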

How the results depend on the processing

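No member was called in blast against sham, for any region or for the mean over regions, under any alternative run, and the interaction called none either. The direction held in 153 of 156 fold changes under other scalings, filters, tests, fits and sets of libraries, and in 244 of 261 with 1 library left out. Cd74 of the anterior cortex (-0.01) turned to 0.059 with library totals only and to 0.0037 with no filter, and RT1-Ba of the cerebellum to -0.033 without the 2 libraries lowest in meningeal genes. With 1 library left out the ranges were -0.018 to 0.28 for RT1-Da and -0.34 to 0.24 (0.17 without the unnumbered sham library) for Ciita of the amygdala, -0.055 to 0.57 for RT1-Da, -0.56 to 0.052 for RT1-Bb and -0.25 to 0.14 for Cd74 of the anterior cortex, and -0.25 to 0.46 for RT1-Ba of the cerebellum. In the cerebellum they were 0.89 to 1.11 for RT1-Da, 1.09 to 1.44 for RT1-Db1 and 0.51 to 0.71 for Cd74. Between sham regions limma-voom called 10 differences with the replicate block and 10 with no block, all among the 13 of edgeR. These fits put RT1-Ba of the hippocampus over the cerebellum (0.05) at -0.031 and -0.030, and Ciita failed their filter on low counts. With 1 sham library left out, 10 to 14 were called, and directions turned in uncalled pairs alone. The ranges were -0.47 to 0.035 for RT1-Db1 of the hippocampus over the amygdala, -0.28 to 0.41 for RT1-Da and -0.35 to 0.38 for Ciita of the hippocampus over the anterior cortex, -0.18 to 0.25 for RT1-Ba of the hippocampus over the cerebellum, and -0.45 to 0.059 for RT1-Ba and -0.0050 to 0.86 for Ciita of the anterior cortex over the cerebellum. Of the 10 genes most like the score 3 remained with centring within region and treatment, and 4 without the cerebellum. The cause was not tested in any of these cases. Blast and sham libraries share no number within a region, so no paired analysis of blast against sham was possible because the groups have no common numbers. Over all genes DESeq2 called 1 in the hippocampus, 20 in the amygdala, 0 in the anterior cortex and 5 in the cerebellum, where edgeR called 0. Depth limits RT1-Bb and Ciita most, at 0 to 55 and 1 to 19 counts a library.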
